A study of Mus musculus with 31 samples.

Results

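The 9 genes described here mark inflammatory monocytes or encode receptors that bind the constant part of antibodies, and they were chosen by name: Ly6c2, Nos2, Lyz2, Cybb, Fcgr1, Fcgr2b, Fcgr3, Fcgr4 and Fcer1g. All 9 were found by symbol among the 15648 genes measured by bulk RNA-seq in the left hippocampus of 31 adult OT-I/Rag-/- mice. These mice carry a T cell receptor transgene for a peptide of ovalbumin (OVA), and they lack Rag1, so no group had mature T or B cells with receptors of their own making. Both dorsal CA1 regions were injected with rAAV-hSyn-OVA-mCherry (rAAV-OVA) or rAAV-hSyn-mCherry (rAAV-control), whose hSyn promoter directs expression to neurons. Hippocampi were taken 2, 5, 8 or 28 days later from 4 mice per group, except for 3 rAAV-control mice at 8 days. Values are CPM, the counts of a gene per 1000000 counts of its library after TMM scaling, and an SE belongs to a Log2FC. FDR values come from the quasi-likelihood F-test of edgeR and were adjusted by Benjamini and Hochberg's method across all 15648 genes. A gene was counted as differentially expressed (DEG) when its FDR did not exceed 0.05 and its absolute Log2FC reached 0.66.

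As background, monocytes with high surface Ly6C leave the blood and enter inflamed tissue, where they become macrophages that can make nitric oxide and reactive oxygen. Fcγ receptors bind IgG: Fcgr1, Fcgr3 and Fcgr4 encode activating receptors, which signal through the ITAM of the FcRγ chain made from Fcer1g, and Fcgr2b encodes the inhibitory receptor with an ITIM in its own tail. Microglia, the resident macrophages of brain tissue, express Fcγ receptors as well, and mice without mature B cells make no antibodies of their own. Bulk RNA-seq cannot tell more cells of a type from more RNA per cell, and that holds for every difference given here.

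The RefSeq promoter sequences (GRCm38.p6, from 250 bases before to 50 after the start) of 4 of these genes are shown to set the most changed Fcγ receptor beside the inhibitory receptor and the oxidase gene beside the high-affinity receptor. Capitals mark matches on either strand to the interferon-γ activated site (GAS) TTCNNNGAA, the interferon-stimulated response element (ISRE), which is GAAA, any 2 bases and GAAA, the PU.1 core GAGGAA and the κB site, which is GGG, any 2 bases and TTTCC, and no matches overlapped in the members' promoters. The counts were made on another build, so the coordinates place the promoters on GRCm38 only.
Fcgr1 (chr3:96293920-96294219, minus strand): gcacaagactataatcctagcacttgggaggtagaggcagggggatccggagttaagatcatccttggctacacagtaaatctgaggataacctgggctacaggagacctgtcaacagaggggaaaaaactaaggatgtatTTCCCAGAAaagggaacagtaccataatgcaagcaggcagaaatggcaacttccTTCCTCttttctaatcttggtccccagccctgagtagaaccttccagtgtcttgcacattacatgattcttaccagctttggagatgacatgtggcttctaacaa
Fcgr4 (chr1:171018676-171018975, plus strand): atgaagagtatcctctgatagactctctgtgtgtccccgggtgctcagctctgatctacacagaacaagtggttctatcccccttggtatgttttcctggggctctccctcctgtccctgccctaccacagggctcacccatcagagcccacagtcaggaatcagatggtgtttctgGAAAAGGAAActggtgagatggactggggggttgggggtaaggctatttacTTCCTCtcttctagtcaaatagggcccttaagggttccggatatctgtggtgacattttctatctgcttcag
Cybb (chrX:9469275-9469574, minus strand): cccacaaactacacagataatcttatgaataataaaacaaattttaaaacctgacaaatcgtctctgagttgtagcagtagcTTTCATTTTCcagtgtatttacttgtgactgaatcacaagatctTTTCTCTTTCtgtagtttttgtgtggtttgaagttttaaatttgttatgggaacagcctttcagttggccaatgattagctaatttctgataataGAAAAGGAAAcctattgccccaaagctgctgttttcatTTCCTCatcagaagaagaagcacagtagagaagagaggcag
Fcgr2b (chr1:170976022-170976321, minus strand): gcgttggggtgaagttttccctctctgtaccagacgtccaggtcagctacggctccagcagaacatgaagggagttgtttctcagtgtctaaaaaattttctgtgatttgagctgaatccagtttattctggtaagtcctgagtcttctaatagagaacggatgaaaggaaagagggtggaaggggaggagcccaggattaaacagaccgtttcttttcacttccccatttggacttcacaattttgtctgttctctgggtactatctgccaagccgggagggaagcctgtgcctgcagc

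The Fcgr1 window held a GAS and a PU.1 core, the Fcgr4 window an ISRE and a PU.1 core, the Cybb window 3 ISREs and a PU.1 core, and the Fcgr2b window none of these letters. Of all 32851 promoters in the table, 8.30% held the GAS, 3.44% the ISRE, 28.3% the PU.1 core and 1.63% the κB letters. The table gave 10 promoters for 8 of the 9 genes. The GAS was found for Fcgr1 alone and the ISRE for Cybb and Fcgr4 alone. The PU.1 core was present in 7 of the 10 promoters, those of Cybb, Fcgr1, Fcgr4, Fcgr3 and Ly6c2, and the κB letters in both promoters of Fcgr3. The windows of Lyz2 and Fcer1g matched none of the 4 motifs. These matches describe letters in a window and were not tested for binding. On chromosome 1, RefSeq lists 38 genes between Fcgr2b and Fcer1g besides the members Fcgr3 and Fcgr4, and 4 of these 38 were measured (Cfap126, Sdhc, Pcp4l1 and Tomm40l). None of these 4 neighbours was a DEG at 2, 5, 8 or 28 days in the edgeR fit, and their Log2FC lay between −0.63 and −0.26 at 5 days and between −0.02 and 1.10 at 28 days.

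Libraries held between 19046977 and 57407902 counts, with a median of 27024978, and batch 1 comprised 23 mice and batch 2 the other 8. Every mouse at 5 and 8 days belonged to batch 1, whereas at 2 and 28 days each group had 2 mice of either batch. A few mice stood apart from their group in the members and in markers of other leukocytes. Whether the label or the injection of D720 and D844 was as stated was not tested. In the paper's principal component analysis, the rAAV-control mice of all days clustered with the rAAV-OVA mice of 2 days. The rAAV-OVA mice of 5, 8 and 28 days formed the other cluster. In rAAV-control mouse D720 at 8 days, the 4 measured T cell markers (Cd8a, Lck, Trac and Trbc2) summed to 116 CPM, against 9.27 and 11.5 CPM in the other controls of that day. In rAAV-OVA mouse D844 at 28 days (batch 2), the same sum was 62.1 CPM, against a group median of 727 CPM. The sum in D844 lay above that of every rAAV-control mouse of its day, whose median was 6.2 CPM. The deepest library was that of rAAV-control mouse D755 at 5 days, and rAAV-control mouse D743 at 2 days had the highest sum of other monocyte markers among all controls, 326 CPM. The labels give no separate origin for the mice of a group beyond their names, and the p-values measure the spread between these mice.

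Without antigen at 28 days, Fcgr3, Fcer1g and Lyz2 were the most abundant members in the hippocampus, and Ly6c2, Cybb, Fcgr4 and Nos2 were scarce. Per kilobase of transcript (CPM per kb), which allows levels of different genes to be compared, the highest rAAV-control means belonged to Fcgr3 at 11.99 ± 2.10, Fcer1g at 12.04 ± 1.52 and Lyz2 at 10.1 ± 4.03 (SD, n = 4), which did not differ beyond their spread. Fcgr2b at 3.67 ± 1.32 and Fcgr1 at 1.54 ± 0.652 followed. Ly6c2 at 0.522 ± 0.0939, Cybb at 0.349 ± 0.207, Fcgr4 at 0.346 ± 0.233 and Nos2 at 0.206 ± 0.0246 were lowest, and the ranges of Cybb and Fcgr4 overlapped each other and those of Ly6c2 and Nos2. In the rAAV-OVA group at 5 days, the order was Lyz2 (509 ± 196 CPM per kb), Ly6c2 (188 ± 50.9), Fcer1g (135 ± 10.1), Fcgr3 (81.0 ± 6.11), Fcgr4 (52.7 ± 11.4), Fcgr2b (44.1 ± 6.56), Cybb (26.5 ± 4.08), Fcgr1 (22.1 ± 4.16) and Nos2 (12.1 ± 7.59). Within that order, the values of single mice overlapped between the neighbours Ly6c2 and Fcer1g, Fcgr4 and Fcgr2b, Cybb and Fcgr1, and Fcgr1 and Nos2. Ly6c2, among the lowest members in controls, was among the highest here.

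All 9 genes were DEGs with higher levels under rAAV-OVA at 5, 8 and 28 days, and none was at 2 days. Over all 15648 genes, 9.63% were called higher at 5 days, 9.32% at 8 days and 12.8% at 28 days, against which the members' 9 of 9 is to be read. The members were chosen with earlier results of these data known, so this contrast is a description and no test of the set. At 5, 8 and 28 days, the members had a median Log2FC of 2.36, 2.58 and 2.05, whereas the median over all genes was −0.01, −0.03 and 0.01. The lowest rAAV-OVA mouse exceeded the highest rAAV-control mouse in CPM for 9 of 9 genes at 5 days (21.04% of all genes), for 6 of 9 at 8 days (14.4%) and for 8 of 9 at 28 days (15.04%). The overlaps at 8 days were in Fcgr1, Fcgr3 and Fcer1g and came from D720, and the overlap at 28 days was in Ly6c2 and came from D844. With D720, D755 and D844 all left out, a choice made after seeing the data, again 9 of 9 genes were called higher on each of the 3 days. D720 was the highest control of its day in every member and D755 in most members, and D844 was the lowest rAAV-OVA mouse of its day. Leaving them out widens the differences, so this fit is no separate check of the calls.

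**Figure D1:**
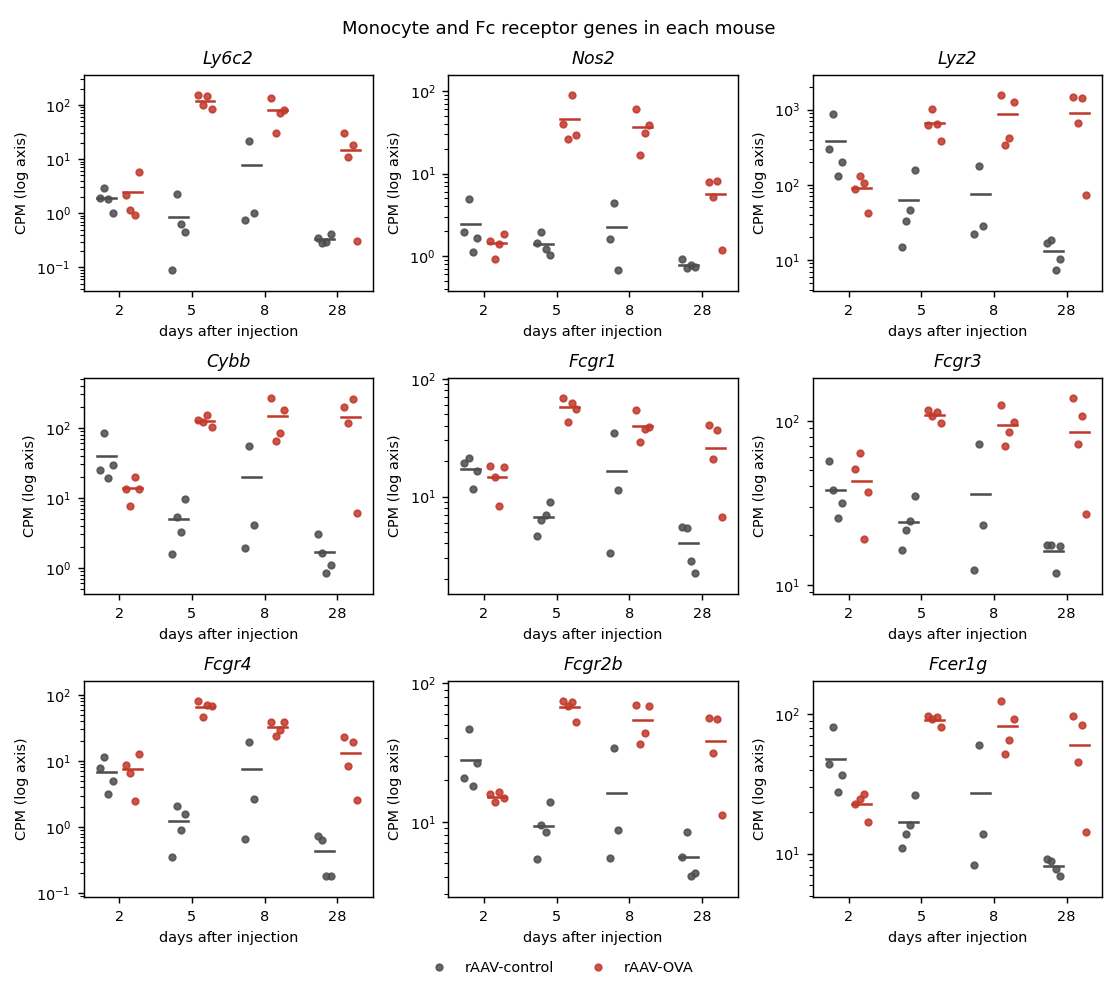
CPM of the 9 genes on a log axis against days after injection, 1 point per mouse (grey, rAAV-control; red, rAAV-OVA; horizontal line, group mean; n = 4, or 3 for rAAV-control at 8 days). At 5 days all red points lie above all grey points in every panel, while at 8 days a single grey point (D720) and at 28 days a single red point (D844) stand away from their groups.

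Ly6c2 (ENSMUSG00000022584) encodes a Ly6C protein found on inflammatory monocytes, among other leukocytes, and had the largest Log2FC of the members at 5 days. In rAAV-OVA mice at 5 days, Ly6c2 measured 149 CPM in D725, 101 in D726, 145 in D786 and 83.2 in D787. In rAAV-control mice of the same day, it measured 0.0895 CPM in D723, 2.30 in D724, 0.631 in D745 and 0.449 in D755. All rAAV-OVA mice were high, all controls near zero, and the groups did not overlap. The group means were 119.6 ± 32.5 and 0.868 ± 0.982 CPM, and the Log2FC was 6.06 (SE 0.763, FDR 1.06e-05, edgeR's quasi-likelihood test). The control mean rests mostly on D724, and D723 had 2 counts. A Log2FC was fitted with 2 surrogate variables and is not the log2 of the ratio of the means, and without covariates it was 7.13 for Ly6c2.

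At 8 days, Ly6c2 stood at 134, 30.4, 69.75 and 82.2 CPM in rAAV-OVA mice D700, D701, D702 and D703, and at 0.752, 21.6 and 0.995 CPM in rAAV-control mice D696, D720 and D722. D720 was the only control near the rAAV-OVA range and still lay below the lowest rAAV-OVA mouse, D701. The Log2FC was 4.08 (SE 0.735, FDR 0.000714, edgeR), and 6.41 without D720, D755 and D844. At 28 days, rAAV-OVA mice D661, D667, D845 and D844 had 29.7, 10.96, 18.4 and 0.310 CPM of Ly6c2, against 0.281 to 0.412 CPM in the rAAV-control mice. The level in D844 was that of the controls, and the other 3 mice were clearly above them. The Log2FC was 3.46 (SE 0.946, FDR 0.00768, edgeR). These low values rest on few reads, with 9 counts in D844 and 7 to 9 counts in each rAAV-control mouse.

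Ly6c1, the neighbouring gene whose product is known from brain endothelium, is nearly identical in sequence to Ly6c2, so Salmon had to divide shared reads between them. Its own Log2FC came to 0.61, 0.43 and 0.47 at 5, 8 and 28 days, and it was not a DEG on any of them, missing only the Log2FC limit at 5 days (FDR 0.0221, edgeR). Leaving out D726 or D723 at 5 days or D720 at 8 days made it one (0.67 to 0.78). So did a fit at 5 days without covariates or with the batch label as covariate (0.70 in either) or on the mice of that day alone (0.73), and leaving out D720, D755 and D844 did so on each of the 3 days (0.73, 0.79 and 0.68). With the counts of Ly6c1 and Ly6c2 summed, the pair was a DEG at 5 days with a Log2FC of 2.31 and at 8 days with 1.69, but at 28 days its Log2FC of 0.63 missed the limits (FDR 0.0504, edgeR). The separate value of Ly6c2 at 28 days is therefore uncertain.

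Nos2 (ENSMUSG00000020826) encodes the inducible nitric oxide synthase of activated macrophages. At 5 days, Nos2 measured 40.2 CPM in D725, 26.6 in D726, 88.5 in D786 and 29.02 in D787, and between 1.02 and 1.94 CPM in the rAAV-control mice. D786 was the highest rAAV-OVA mouse, and the lowest of them was still far above every control. The Log2FC of Nos2 was 4.61 (SE 0.532, FDR 6.25e-06, edgeR), the lowest FDR among the members. At 8 days, Nos2 measured 60.55, 16.65, 30.8 and 39.3 CPM in D700, D701, D702 and D703 and 1.59, 4.44 and 0.676 CPM in D696, D720 and D722. The groups were again apart, and the Log2FC was 4.11 (SE 0.578, FDR 0.00012, edgeR). At 28 days, Nos2 had dropped to 7.87, 5.14, 8.23 and 1.17 CPM in D661, D667, D845 and D844, and controls were between 0.722 and 0.924 CPM. Even D844 lay above all controls, and the Log2FC was 2.04 (SE 0.587, FDR 0.0104, edgeR), which among the fits that left out a mouse fell short of the limits without rAAV-control mouse D851 (1.70, FDR 0.054).

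Lyz2 (ENSMUSG00000069516), the lysozyme gene of monocytes, macrophages and granulocytes, had the highest mean CPM per kb of the members under rAAV-OVA at 5, 8 and 28 days, with a wide spread. At 5 days, it measured 632, 1011, 651 and 383 CPM in D725, D726, D786 and D787 and 14.95, 32.9, 46.0 and 158 CPM in D723, D724, D745 and D755. The groups were apart, although D755 was far above the other controls. Its Log2FC at 5 days was 2.27 (SE 0.85, FDR 0.0464, edgeR), close to the limit. The call was lost in 6 of the 8 fits that left out a mouse of that day, with an FDR up to 0.124, and the Log2FC was 3.67 without D755. At 8 days, Lyz2 reached 1545, 338, 420.3 and 1246 CPM in D700, D701, D702 and D703, against 22.3, 179 and 28.05 CPM in D696, D720 and D722, with a Log2FC of 3.54 (SE 0.9, FDR 0.00883, edgeR). At 28 days, D661 had 1454 CPM, D667 669, D845 1423 and D844 73.8, and the controls lay between 7.35 and 18.5 CPM. The lowest rAAV-OVA mouse, D844, was above all controls, and the ratio of the means was 68.2, with a Log2FC of 4.85 (SE 0.917, FDR 0.000621, edgeR). Its near-identical copy Lyz1 was not among the genes analysed here.

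Cybb (ENSMUSG00000015340) encodes gp91phox, the catalytic subunit of the phagocyte NADPH oxidase. It measured 128, 122, 151 and 104 CPM in D725, D726, D786 and D787 at 5 days and 1.57, 5.225, 3.19 and 9.69 CPM in D723, D724, D745 and D755. The groups were widely separated, with a 25.6-fold ratio of the means and a Log2FC of 3.57 (SE 0.848, FDR 0.00303, edgeR). At 8 days, the rAAV-OVA mice D700, D701, D702 and D703 had 262, 65.25, 85.2 and 177 CPM of Cybb, and D696, D720 and D722 had 1.92, 54.3 and 4.02 CPM. D720 was close below D701, and the Log2FC was 3.41 (SE 0.874, FDR 0.00914, edgeR) with D720 and 5.60 without D720, D755 and D844. At 28 days, Cybb stood at 195, 115, 258.5 and 5.965 CPM in D661, D667, D845 and D844 and at 0.842 to 3.04 CPM in the controls. D844 was the lowest but remained above the controls, and the Log2FC of 5.00 (SE 0.968, FDR 0.000727, edgeR) was the largest of the members on that day.

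Among the activating receptors, Fcgr4 had the largest Log2FC on each of the 3 days. Fcgr4 (ENSMUSG00000059089) encodes FcγRIV, which binds IgG2a and IgG2b. At 5 days, it measured 79.5, 45.9, 70.8 and 68.5 CPM in D725, D726, D786 and D787 and 0.358, 2.08, 0.890 and 1.60 CPM in D723, D724, D745 and D755. No control came near the rAAV-OVA mice, and the Log2FC was 4.70 (SE 0.615, FDR 1.54e-05, edgeR). At 8 days, Fcgr4 had 39.3, 23.9, 29.02 and 39.4 CPM in D700, D701, D702 and D703 and 0.668, 19.45 and 2.63 CPM in D696, D720 and D722, with a Log2FC of 2.58 (SE 0.603, FDR 0.00493, edgeR). D720 set the upper end of the controls, below the lowest rAAV-OVA mouse. With each mouse of that day left out, the Log2FC ran from 1.63 to 3.90, the highest without D720, and the call was lost without D696 or D722 (FDR up to 0.149). At 28 days, D661, D667, D845 and D844 had 23.3, 8.49, 19.1 and 2.55 CPM and the controls 0.183 to 0.731 CPM, with 4 and 5 counts in the lowest controls. The Log2FC of Fcgr4 at 28 days was 3.62 (SE 0.719, FDR 0.000854, edgeR).

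Fcgr1 (ENSMUSG00000015947) encodes FcγRI, the receptor with high affinity for monomeric IgG. It measured 68.1, 43.2, 62.7 and 55.1 CPM in D725, D726, D786 and D787 at 5 days and between 4.61 and 8.92 CPM in the controls. The Log2FC was 2.36 (SE 0.423, FDR 0.000277, edgeR). At 8 days, D700, D701, D702 and D703 had 54.8, 29.1, 37.2 and 39.3 CPM, and D696, D720 and D722 had 3.34, 34.65 and 11.5 CPM. D720 exceeded D701 here, so the groups overlapped. The Log2FC was 1.43 (SE 0.43, FDR 0.0237, edgeR), the highest FDR of a member on that day. With each mouse of that day left out, the Log2FC ran from 0.69 to 2.115, and the call was lost in 5 of the 7 fits. At 28 days, Fcgr1 stood at 40.4, 20.65, 36.4 and 6.65 CPM in D661, D667, D845 and D844 and at 2.24 to 5.47 CPM in the controls, with a Log2FC of 1.83 (SE 0.437, FDR 0.00322, edgeR).

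Fcgr3 (ENSMUSG00000059498) encodes FcγRIII, a receptor of lower affinity for IgG in immune complexes. It was the most abundant Fcγ receptor gene of the control hippocampus and had the smallest Log2FC of the members at 5, 8 and 28 days. The next member lay within its SE each time, Fcer1g at 5 days (1.76) and Fcgr1 at 8 and 28 days (1.43 and 1.83), so this order is not settled. At 5 days, Fcgr3 measured 116, 107, 112 and 97.3 CPM in D725, D726, D786 and D787 and 16.3, 21.6, 24.7 and 34.6 CPM in D723, D724, D745 and D755. The groups were apart, with a Log2FC of 1.52 (SE 0.34, FDR 0.0019, edgeR). At 8 days, it had 124, 69.9, 84.8 and 98.65 CPM in D700, D701, D702 and D703 and 12.3, 72.1 and 23.04 CPM in D696, D720 and D722. D720 again overlapped D701, and the Log2FC was 1.33 (SE 0.352, FDR 0.0113, edgeR). At 28 days, it had 137, 72.5, 107 and 26.9 CPM in D661, D667, D845 and D844 and 11.8 to 17.5 CPM in the controls, with a Log2FC of 1.66 (SE 0.348, FDR 0.00125, edgeR).

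The inhibitory receptor gene Fcgr2b (ENSMUSG00000026656) rose alongside the activating receptors. At 5 days, it measured 73.8, 68.7, 73.1 and 52.45 CPM in D725, D726, D786 and D787 and between 5.37 and 13.8 CPM in the controls, with a Log2FC of 2.22 (SE 0.425, FDR 0.000493, edgeR). At 8 days, it had 70.0, 36.5, 44.0 and 67.9 CPM in D700, D701, D702 and D703 and 5.51, 34.15 and 8.71 CPM in D696, D720 and D722. D720 lay just below D701, so the groups touched without overlap, and the Log2FC was 1.90 (SE 0.441, FDR 0.00462, edgeR). At 28 days, it stood at 56.4, 31.1, 55.3 and 11.1 CPM in D661, D667, D845 and D844 and at 4.06 to 8.42 CPM in the controls, with a Log2FC of 2.05 (SE 0.437, FDR 0.00138, edgeR).

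Fcer1g (ENSMUSG00000058715), whose product carries the ITAM for all 3 activating receptors, measured 96.9, 92.3, 95.5 and 81.7 CPM in D725, D726, D786 and D787 at 5 days. The rAAV-control mice D723, D724, D745 and D755 had 11.01, 13.85, 15.9 and 26.1 CPM. The 4 rAAV-OVA mice were close to each other and above all controls, and the Log2FC was 1.76 (SE 0.459, FDR 0.00601, edgeR). At 8 days, Fcer1g had 124, 51.6, 65.2 and 91.85 CPM in D700, D701, D702 and D703 and 8.27, 60.0 and 13.9 CPM in D696, D720 and D722. D720 exceeded D701, and the Log2FC was 1.72 (SE 0.474, FDR 0.0142, edgeR). With each mouse of that day left out, it ran from 1.10 to 2.58, and the call was lost without D696, D722 or rAAV-OVA mouse D700 (FDR up to 0.209). At 28 days, it stood at 97.2, 45.8, 84.1 and 14.2 CPM in D661, D667, D845 and D844 and at 6.91 to 9.12 CPM in the controls, with a Log2FC of 2.05 (SE 0.477, FDR 0.00263, edgeR).

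The calls at 8 days depended on which mice were present, and most on the 3 controls. Without rAAV-control mouse D722, 2 of 9 genes were DEGs (Ly6c2 and Nos2), without D696 there were 5, and without D720 all 9 were. In either of the former fits, D720 made up 1 of 2 remaining controls. Without rAAV-OVA mouse D700, Fcgr1 and Fcer1g were not called, and without D701 or D702 Fcgr1 was not. With a mouse left out, the Log2FC ran from 0.75 to 1.97 for Fcgr3, from 1.34 to 2.68 for Fcgr2b and from 2.48 to 5.26 for Cybb, the highest without D720. A fit without covariates left 5 of 9 at 8 days, with FDR values between 0.00151 and 0.103, and a fit on the mice of that day alone called 0 of 9 and 0 of all genes, while 6 of the 9 had an unadjusted p under 0.05 there. At 28 days, the members' Log2FC ran from 2.89 to 7.37 within batch 1 and from 1.93 to 5.81 within batch 2. Batch 1 alone called 9 of 9 members and 1121 of all genes, and batch 2 alone called 0 members and 0 of all genes, with 2 mice per group in either fit and 2 members at an unadjusted p under 0.05 in batch 2.

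**Figure D2:**
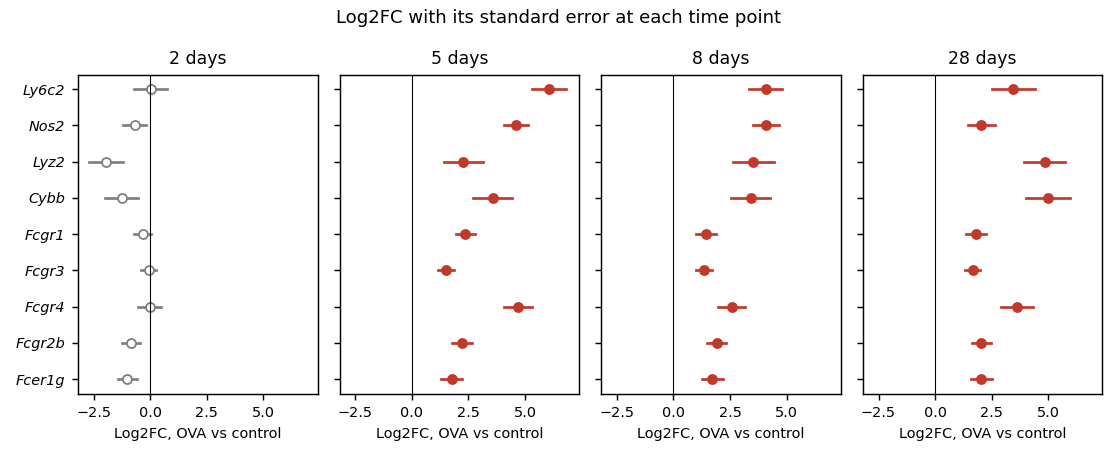
Log2FC (rAAV-OVA against rAAV-control, x axis) of the 9 genes at 2, 5, 8 and 28 days, with horizontal lines of ±1 SE and filled red points for DEGs. No gene is filled at 2 days and all 9 are filled at the later days, between 1.52 and 6.06 at 5 days, 1.33 and 4.11 at 8 days, and 1.66 and 5.00 at 28 days.

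In the makeup of the Fcγ receptor genes at 5 and 28 days, the shares of Fcgr4 and Fcgr3 stood furthest apart between vectors. Shares were taken of the summed CPM per kb of Fcgr1, Fcgr2b, Fcgr3 and Fcgr4, and they are given as descriptions without a test. The share of Fcgr4 was 3.41 ± 2.0% in rAAV-control mice and 26.2 ± 4.05% in rAAV-OVA mice at 5 days, and 1.85 ± 1.02% and 8.75 ± 2.14% at 28 days (SD, n = 4 each). At 8 days, it was 17.8 ± 1.11% in rAAV-OVA mice and 8.47 ± 5.66% in the 3 controls, where D720 was highest at 14.7%. The share of Fcgr3 was 65.5 ± 3.34% in rAAV-control and 40.7 ± 2.85% in rAAV-OVA mice at 5 days, 47.8 ± 2.09% in rAAV-OVA mice at 8 days, and 68.9 ± 6.47% against 59.3 ± 3.3% at 28 days. At 2 days, the Fcgr4 shares of 8.82 ± 2.24% and 11.02 ± 5.64% overlapped.

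The share of the inhibitory gene Fcgr2b stayed between means of 20.65% and 23.98% in both vectors at 5, 8 and 28 days. At 2 days, it was 31.3 ± 8.80% in rAAV-control and 20.9 ± 9.997% in rAAV-OVA mice, and the values of single mice overlapped. The summed activating genes per unit of Fcgr2b were 3.65 ± 0.399 in rAAV-control and 3.58 ± 0.565 in rAAV-OVA mice at 5 days and 3.98 ± 0.905 and 3.36 ± 0.274 at 28 days, differences within the spread between mice. At 2 days they were 2.45 ± 1.18 and 4.47 ± 1.95, again overlapping. The ratio of Fcgr4 alone to Fcgr2b moved with vector and time. At 5 days, it was 1.30, 0.810, 1.17 and 1.58 in D725, D726, D786 and D787 and 0.0807, 0.264, 0.127 and 0.140 in D723, D724, D745 and D755. Its rAAV-OVA mean then went from 1.22 ± 0.32 at 5 days to 0.743 ± 0.0605 at 8 days and 0.381 ± 0.0986 at 28 days, and the individual values of these 3 groups did not overlap. In D844, the rAAV-OVA mouse with the lowest level of each of the 4 receptor genes at 28 days, the ratio was 0.277, above the highest rAAV-control value of that day, 0.159. In D720, the ratio of 0.689 fell within the rAAV-OVA range of its day.

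**Figure D3:**
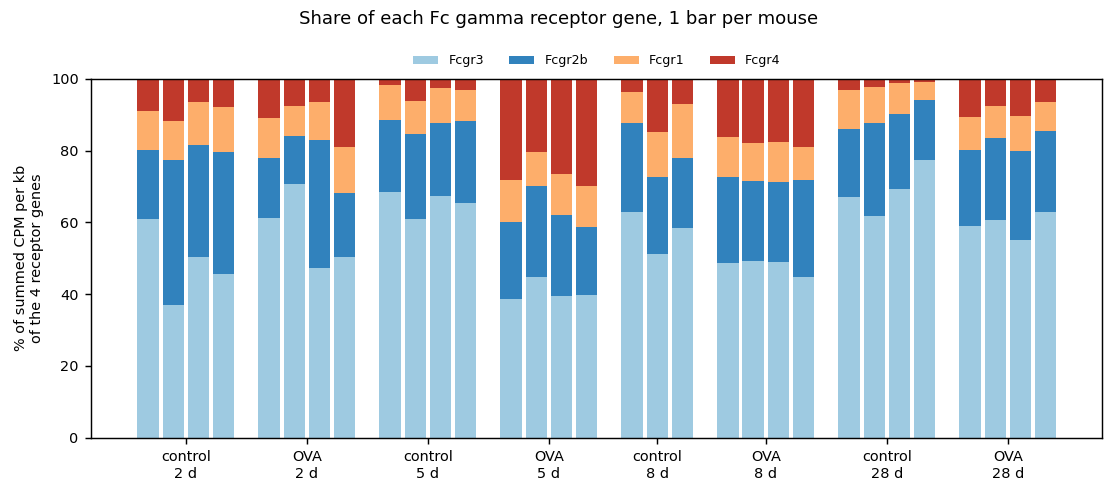
Share (%) of each of the 4 Fcγ receptor genes in their summed CPM per kb, 1 stacked bar per mouse, grouped by vector and day. The red Fcgr4 segment averages 26.2% in rAAV-OVA mice at 5 days and 3.41% in their controls, and the dark blue Fcgr2b segment averages 22.1% and 21.7%.

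Among other Fc receptor genes, 4 of 14 listed were measured, and they did not move as a group. Fcrls, a homolog of the Fc receptors known as a microglial gene, was lower under rAAV-OVA at 5 and 8 days, when the members were higher. It measured 7.79, 17.5, 6.21 and 7.65 CPM in D725, D726, D786 and D787 and 42.1, 39.2, 52.1 and 80.6 CPM in D723, D724, D745 and D755. Every rAAV-OVA mouse lay below every control, and the Log2FC of Fcrls was −2.20 (SE 0.283, FDR 1.22e-05, edgeR) at 5 days and −1.67 (FDR 0.000445) at 8 days. D720, in which the members were high for a control, had 33.5 CPM of Fcrls, between the 31.7 and 35.2 CPM of the other controls of its day. At 28 days, Fcrls measured 10.5 to 19.96 CPM under rAAV-OVA and 19.5 to 28.2 CPM under rAAV-control, and its Log2FC of −0.53 (FDR 0.136, edgeR) was not past the limits, whereas without covariates it was −0.80 (FDR 0.0362). Trim21, a cytosolic antibody receptor, rose at 5, 8 and 28 days with Log2FC values of 2.55, 1.62 and 1.47. Fcrl1 rose at 8 and 28 days with 2.30 and 2.55 and had a Log2FC of 0.75 (FDR 0.349, edgeR) at 5 days. Fcgrt, which encodes the neonatal Fc receptor, rose by 0.72 at 28 days and was not called at 5 and 8 days.

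Of 16 genes listed as ligands of Fc receptors, Ighm and Ptx3 were measured. Ighm, the gene of the μ heavy chain constant region, rose at 8 and 28 days with Log2FC values of 1.50 and 1.79 (edgeR), in mice that lack Rag1, and the call at 8 days was lost without D722. Its Log2FC at 5 days was 0.81 (FDR 0.109) with the surrogate variables and 1.41 (FDR 0.0107) without covariates, and it was called without D755 (1.22, FDR 0.0149). All rAAV-OVA mice of that day (38.9 to 42.0 CPM) exceeded all controls (10.8 to 22.05 CPM). Ptx3, a soluble pentraxin, rose at 5 and 8 days by 4.04 and 2.47 and stood at 0.21 (FDR 0.853) at 28 days. The IgG heavy chain genes and the light chain genes of the list were not among the genes analysed here.

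Partner subunits and signalling genes of the members were counted by list. Of the 6 measured genes of the NADPH oxidase besides Cybb, 5 were higher at 5, 8 and 28 days, with median Log2FC values of 1.83, 2.04 and 2.36 over the list and of −0.01, −0.03 and 0.01 over all genes. Cyba, the membrane partner of Cybb, had a Log2FC of 1.92 at 5 days and 2.68 at 28 days, and the cytosolic subunit gene Ncf4 had 2.42 and 2.74. The small GTPase gene Rac2, the leukocyte form, had 1.95, 3.03 and 3.78 at 5, 8 and 28 days, while its ubiquitous counterpart Rac1 had −0.13, −0.14 and 0.05 and was not called. Of 15 genes of ITAM and ITIM signalling, 12 rose at each of the 3 days. Among those on the activating side, the Src family kinase gene Fgr had Log2FC values of 3.12, 3.40 and 4.20, Syk 1.59, 2.18 and 1.70, and the DAP12 gene Tyrobp 1.05 (FDR 0.0485, edgeR), 1.34 and 1.78. On the inhibitory side, the phosphatase genes Ptpn6 (SHP-1) with 2.38, 2.78 and 3.05 and Inpp5d (SHIP1) with 1.29, 1.42 and 1.59 rose as well. The broadly expressed relatives Fyn, Inppl1 and Ptpn11 were not called on any of the 3 days.

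**Figure D4:**
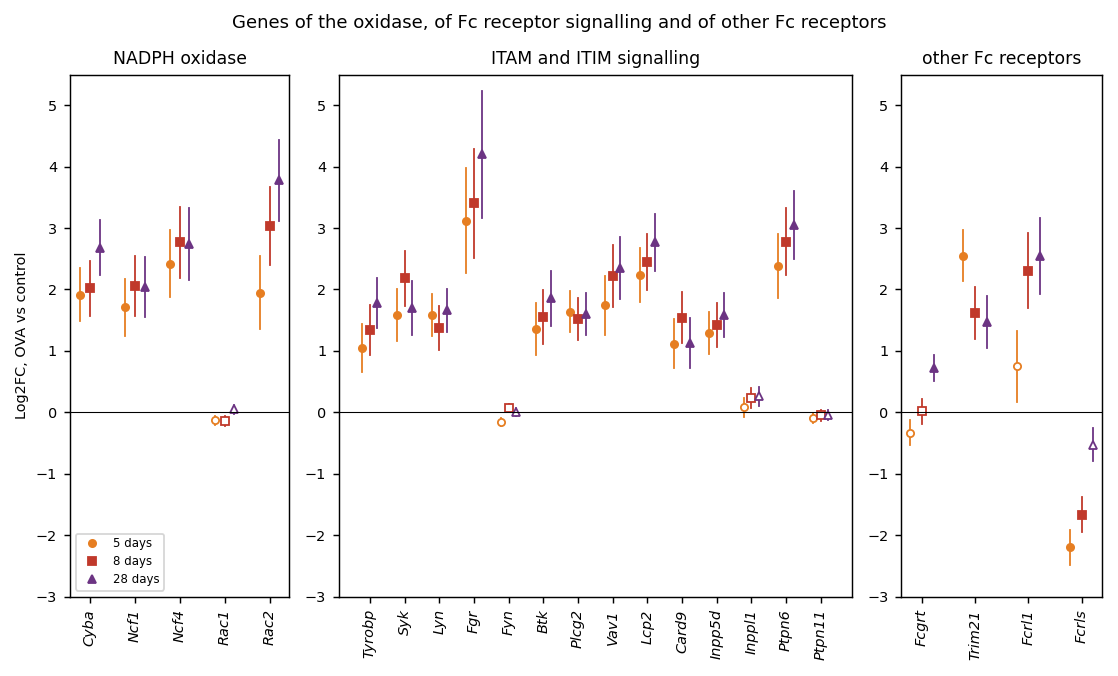
Log2FC with ±1 SE (rAAV-OVA against rAAV-control) of 5 NADPH oxidase genes, of 14 ITAM and ITIM signalling genes and of 4 other Fc receptor genes at 5 days (orange circles), 8 days (red squares) and 28 days (purple triangles), filled where the gene was a DEG. All filled points lie above 0 except those of Fcrls at 5 and 8 days, at −2.20 and −1.67.

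A list of 9 further measured genes held those of arginine and nitric oxide metabolism and also Ptgs2, a prostaglandin synthase gene outside that metabolism. Of the 9, 3, 3 and 1 were higher at 5, 8 and 28 days, and 1, Ptgs2 itself, was lower at 28 days. Over all genes, 12.8% were called higher at 28 days, near the 1 of 9 here, and 4.72%, 0.569% and 4.88% were called lower at 5, 8 and 28 days. Ass1, which regenerates arginine, rose on all 3 days by 0.83, 0.72 and 0.95. Ptgs2 rose at 5 days by 0.95 and was lower at 28 days, at −1.37, and the synthases Nos1 and Nos3 were not called on any of the 3 days. Of the interferon-γ pathway, 7, 8 and 7 of 10 measured genes rose at 5, 8 and 28 days, and Ifng itself was not among the genes analysed here.

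Other markers of monocytes rose too, and so did markers of several other leukocytes. Of 13 further monocyte markers, 7 were higher at 5 days, 9 at 8 days and 8 at 28 days, among them the chemokine receptor gene Ccr2 with Log2FC values of 4.26, 2.86 and 4.81 and Plac8 with 5.53, 3.27 and 4.61. Chil3 had 4.72, 4.08 and 1.96, the last not called (FDR 0.0582, edgeR). Summed over the 13 genes, rAAV-OVA mice had 397 to 557 CPM at 5 days against 61.1 to 134 CPM in rAAV-control mice. The T cell markers summed to 210.0 to 275 CPM under rAAV-OVA at 5 days and to 6.76 to 14.2 CPM under rAAV-control, and all 4 measured genes rose on each of the 3 days. General myeloid and leukocyte markers rose in 7, 7 and 10 of 10 at 5, 8 and 28 days.

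Of 11 measured homeostatic microglia markers, 3 were higher and 1 (Gpr34) lower at 5 days, 1 was higher at 8 days and 7 at 28 days, with list medians of 0.23, 0.44 and 0.95. Over all genes, 9.63% were called higher at 5 days and 9.32% at 8 days, a share close to the 1 of 11 here. Their summed CPM was 1190 to 1220 in rAAV-OVA and 580 to 883 in rAAV-control mice at 5 days. Of border-associated macrophage markers, 1 of 7 rose and 1 fell at both 5 and 8 days and 3 rose at 28 days. For neutrophils, only Csf3r and S100a8 of 11 markers were measured. S100a8 averaged 1.57 ± 1.13 CPM in rAAV-OVA mice at 5 days and was not called at 5, 8 or 28 days, and Csf3r rose at 8 and 28 days. Dendritic cell markers rose in 2, 2 and 3 of 4, the natural killer cell markers in 1 of 2 on each day, and the single measured mast cell and B cell markers were called higher at 28 days and not at 5 and 8 days. Between the responses at 5 and 28 days, the difference was called for the B cell marker (−2.44) and not for the mast cell marker (−0.98). Endothelial markers rose in 3 of 5 at 28 days and in none at 5 and 8 days, and neuron markers fell in 1, 0 and 4 of 8, against 12.8% of all genes called higher at 28 days and 4.72%, 0.569% and 4.88% called lower at 5, 8 and 28 days. The part of each cell type in the members' levels was not tested.

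Days were compared within a vector using mice that also enter the comparisons of vectors. In rAAV-OVA mice, 7 of 9 genes were higher at 5 than at 2 days, against 6.60% of all genes. The largest differences were in Ly6c2 with a Log2FC of 4.56 (SE 0.709, FDR 0.000259) and in Nos2 with 4.44 (SE 0.545, FDR 2.66e-05), and Fcgr4 followed with 2.37 (FDR 0.00632, edgeR). Cybb at 2.04 (FDR 0.0913) and Lyz2 at 2.00 (FDR 0.108) were not past the limits. Outside the members, 4 of 4 T cell markers, 5 of 10 general myeloid and leukocyte markers and 5 of 13 other monocyte markers were higher at 5 days. Of 11 homeostatic microglia markers, 2 were higher and 1 lower. The mice of 5 days all belonged to batch 1 and those of 2 days to both, and with the batch label in the model 5 of 9 were higher, Fcgr3 and Fcer1g being lost. With each mouse left out in turn, between 3 and 8 members were called, the lowest count without D786 (3) and counts of 4 without D725, D684 or BEC-B542. Without D720, D755 and D844 all 9 were called, although these mice are in neither group compared and enter only through the parts of the model shared by all groups.

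From 5 to 8 days, none of the members was called in either direction (2.10% of all genes), with FDR values from 0.647 to 0.994, no unadjusted p under 0.05 and 0 calls by DESeq2. From 8 to 28 days, Nos2 fell by 2.86 on the log2 scale (SE 0.465, FDR 0.00485, edgeR) and Ly6c2 by 3.07 (SE 0.608, FDR 0.0106), 2 of 9 members against 0.498% of all genes. Fcgr4 was at −1.64 (SE 0.508, FDR 0.0628), and the other 6 were not called. Without D845 neither call held, without D701 only 1 remained, and without covariates 1 of 9 was lower.

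The difference between the response at 5 days and that at 28 days was tested as an interaction, in which 2.31% of all genes were called as more strongly raised at 5 days. Nos2 was the only member called, with a difference of 2.56 (SE 0.742, FDR 0.0322, edgeR). Ly6c2 had a difference of 2.60 (SE 1.32, FDR 0.206), Fcgr4 of 1.09 (FDR 0.476), Cybb of −1.43 (FDR 0.42) and Lyz2 of −2.57 (SE 1.04, FDR 0.113). The call for Nos2 was lost in 7 of 16 fits that left out a mouse, those without D723, D724 or D755 (rAAV-control, 5 days), D843 or D705 (rAAV-control, 28 days) and D845 or D844 (rAAV-OVA, 28 days). It was also lost without covariates, at 2.23 (FDR 0.13), and without D720, D755 and D844, at 1.58 (FDR 0.175). Of the fits that left out a mouse, that without D723 called Lyz2, as more strongly raised at 28 days (FDR 0.0423, edgeR).

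At 2 days, none of the 9 genes was a DEG (0% of all genes), and the median Log2FC of the members was −0.70 against 0.01 over all genes. Lyz2 measured 87.0, 129, 107 and 42.6 CPM in rAAV-OVA mice D683, D684, BEC-B541 and BEC-B542 and 296, 882, 132 and 203 CPM in rAAV-control mice D740, D743, BEC-B544 and BEC-R385. All rAAV-OVA mice lay below all controls, and D743 was the highest of all. The Log2FC of Lyz2 was −1.96 (SE 0.757, FDR 0.455, edgeR), and those of Cybb, Fcer1g and Fcgr2b were −1.27, −1.02 and −0.85, with none past the limits. At an unadjusted p under 0.05, 3 of 9 members and 1416 of 15648 genes were found by edgeR, 3 members by DESeq2 and 4 by limma's voom, and DESeq2 called 0 members and 10 genes over all. D743 also had the highest neutrophil sum of the controls, 54.7 CPM, whose part in these values was not tested.

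In rAAV-control mice, 6 of 9 members were lower at 28 days than at 2 days, against 2.66% of all genes. Lyz2 fell from a mean of 378 ± 342 CPM at 2 days to 13.3 ± 5.30 CPM at 28 days, and no mouse of the later group reached any of the earlier one. Its Log2FC for 28 against 2 days was −4.32 (SE 0.844, FDR 0.00545, edgeR). The other 5 were Cybb at −4.09 (FDR 0.0101), Fcgr4 at −3.41 (FDR 0.00669), Fcer1g at −2.20 (FDR 0.00665), Fcgr2b at −2.05 (FDR 0.00611) and Fcgr1 at −1.73 (FDR 0.0187). Ly6c2 at −1.96 (FDR 0.388), Nos2 at −1.35 (FDR 0.278) and Fcgr3 at −0.78 (FDR 0.269) were not called. Ly6c2 and Nos2 had 1.92 ± 0.807 and 2.43 ± 1.73 CPM in rAAV-control mice at 2 days. Outside the members, 7 of 13 other monocyte markers and 6 of 10 general myeloid and leukocyte markers were lower at 28 days as well. So were 2 of 11 homeostatic microglia markers and 0 of 4 T cell markers. With each mouse left out, 4 to 6 members were lower, and without D720, D755 and D844 all 9 were. These mice are in neither group compared here and enter only through the parts of the model shared by all groups.

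Across the 31 mice, the log2 CPM of the 9 genes moved closely together, which is given as a description because the mice share vectors and days. Over the 36 pairs of members, Pearson's r ran from 0.792 to 0.985, with a median of 0.924, and after subtracting each group's mean it ran from 0.558 to 0.949, with a median of 0.795. Over the 12 rAAV-OVA mice at 5, 8 and 28 days, r was 0.95 for Lyz2 and Cybb and 0.947 for Ly6c2 and Nos2, and the lowest value was that of Nos2 and Lyz2 (0.505). Among the most similar genes outside the 9, by r over all 31 mice, were Il18bp (0.974), Ly6a (0.97) and Plac8 (0.968) for Ly6c2 and Smpdl3b (0.95), Hk2 (0.945) and Bst1 (0.943) for Nos2. For Lyz2 they were Igsf6 (0.983), Cd52 (0.979) and Cxcl16 (0.978), and for Cybb Cxcl16 (0.99), Myo1f (0.988) and Ifi30 (0.987). Fcgr4 and Fcgr1 shared Ifi204 as the most similar gene (0.981 and 0.98), followed by Gbp5 (0.973) and Ms4a4c (0.972) for Fcgr4 and Ifitm3 (0.972) and Ly86 (0.972) for Fcgr1. Fcgr2b was closest to Ifi30 (0.994) and Cxcl16 (0.991), Fcer1g to Cxcl16 (0.99) and also near Lst1 (0.985), and Fcgr3 to Tifa (0.975), Cd86 (0.975) and Bcl2a1b (0.973). The surrogate variables of the model correlated with the 9 genes over the 31 mice as well, SV1 at −0.5 to −0.35 and SV2 at 0.39 to 0.65. Without covariates, the members' Log2FC ran from 2.15 to 7.13 on day 5, 1.29 to 4.05 on day 8 and 2.42 to 6.43 on day 28.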

How the data were processed

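The data are bulk RNA-seq of left hippocampi, with a library for each of 31 mice. The authors trimmed the reads, estimated transcript abundances with Salmon 1.8.0 and its GC correction on GENCODE M29 (GRCm39), summed them to genes and analysed them with DESeq2 1.36.0. The expected counts were deposited as whole numbers, not normalized, after the authors had dropped genes that did not reach 15 counts in 15 mice. All 9 members passed this filter, and 7 of them had 15 counts in all 31 mice, Fcgr4 in 28 and Ly6c2 in 25. No mice of a group were duplicates within counting noise. Mice were grouped by vector and day from the labels.

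Differential expression was computed with edgeR 4.0.16 in R 4.3.3 (TMM, robust dispersions, quasi-likelihood F-test), in a single model of the 8 groups with 2 surrogate variables (sva 3.50.0), and was tested on simulated data. SE is the absolute Log2FC divided by the square root of F. Counting error and the spread between mice enter the model, and totals of 19046977 to 57407902 counts per mouse set its precision. CPM correlations used a prior count of 2. Levels per kb used median transcript lengths of GENCODE M21. Alternatives were DESeq2 1.42.0, limma 3.58.1 (voom), DESeq2 size factors, no covariates, the batch label, a mean of at least 1 CPM, no limit on Log2FC, Ly6c1 summed with Ly6c2, the mice of a day or a batch alone, and each mouse left out.

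The genes named are the 9 members, genes of lists compiled by hand, and for each member genes among the 3 with the highest r. List counts and sums cover all measured genes of a list, and a few of these genes are not reported here by name. The members and lists were chosen with earlier results of these data known. Of the lists, Fcrls was matched by gene ID, since the table carries another symbol for it, and Trac by gene ID as well. No Nos2 promoter was in the reference table.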

Additional observations from a re-analysis of the deposited data

Results flagged for a closer look

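The CPM of each member and the ratio of Fcgr4 to Fcgr2b were checked in the groups of 4 mice, 70 checks in all. In 2 of them, a mouse's distance to the nearest other, as a share of the group's range, exceeded Dixon's 95% critical value. Chance gives about 1 in 20. Both were in rAAV-control groups. At 2 days, Cybb was highest in D743, at 83.5 CPM, with a gap of 0.845 of the range to the next mouse at 29.4 CPM. At 28 days, Fcgr3 was lowest in D705, at 11.8 CPM, with a gap of 0.961 of the range, while the other 3 mice lay between 17.3 and 17.5 CPM.

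For Nos2, the response at 5 days differed from that at 28 days in the fit reported here, but not in every alternative. The difference in Log2FC was 2.56 in a test of the interaction (edgeR, FDR 0.0322), from 4.61 at 5 days to 2.04 at 28 days, and the lowest rAAV-OVA mouse exceeded the highest rAAV-control mouse on both days. The call was lost in 7 of 16 fits that left out a mouse, without covariates (2.23, FDR 0.13) and without D720, D755 and D844 (1.58, FDR 0.175).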

How the results depend on the processing

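No paired analysis was possible because replicate numbers only name the mice, each of which gave a single library. Over 1323 values of single members under the alternatives, 1227 stayed on the same side of the limits, 85 were no longer past them and 11 came to pass them, and 0 values past the limits in either fit changed sign. The number of members called moved by more than 1.5 times in these cases. At 8 days, no covariates gave 5 and the mice of the day alone 0, and with each mouse left out the number ran from 2 to 9. At 28 days, batch 2 alone gave 0, and with each mouse left out it ran from 8 to 9. For the response at 5 days minus 28 days, no covariates gave 0, leaving out D720, D755 and D844, chosen after seeing the data, gave 0, and single mice left out gave 0 to 1. For rAAV-OVA at 5 minus 2 days, mice left out gave 3 to 8. For rAAV-OVA at 28 minus 8 days, no covariates gave 1 and mice left out 0 to 3. The cause was not tested, other than that the fits on a day or batch alone hold fewer mice. The remaining counts, at 2 and 5 days, from 5 to 8 days and in controls, stayed within 1.5 times under each alternative run. Lyz1 was not in the table, so summing it with Lyz2 was not run. Where a mouse is left out, the other mice of its group set its mean, and the spread is pooled over all groups. The depth limits Ly6c2 and Fcgr4 in rAAV-control mice, where single mice had as few as 2 and 8 counts at 5 days and 7 and 4 at 28 days.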
